A study of Rattus norvegicus with 12 samples.

Results

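The MHC, immunoproteasome and interferon response genes were followed in the cortex of transplanted rat kidneys. The set held 27 named genes and every gene whose platform symbol starts with RT1-, the prefix of the rat MHC. It came to 45 genes of the 14217 that the array names with a probe set of a single gene, and 6 further probe sets that name several RT1 genes at once were kept as entries of their own and flagged. One probe set stood for each gene, the one with the highest mean over the 12 arrays. Of the 51 entries, 46 passed the filter on low signal (a mean log2 signal of at least -2.53). The 5 that did not pass were Ifih1, a cytoplasmic sensor of double-stranded RNA, and the probe sets naming RT1-A/RT1-CE16/RT1-A1, RT1-A2/RT1-A1, RT1-T24-3/RT1-T24-4 and RT1-M6-1/RT1-M4.

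The study asked what the loss of the organic anion transporter MRP2, encoded by Abcc2, does in a renal graft. It compared 6 kidneys from wild-type donors with 6 kidneys from ABCC2-/- (MRP2-deficient) donors, all transplanted into wild-type recipients and all labelled male, with 1 array for each graft. The strain, the age, the time since transplantation and whether donor and recipient were matched at the MHC are not given in the sources used here. No untransplanted kidney was analysed here. The labels do not say that samples of a group came from separate donors, and p-values here reflect only how far these samples differ, which may in part be technical. Abcc2 itself had a log2 signal of -0.35 to -0.018 on the wild-type arrays and of -3.85 (the lowest value used) to -2.23 on the deficient arrays (log2 difference -2.69, SE 0.22, n = 6 and 6, limma adjusted p = 8.35e-06). The size depends on that lowest value, which 1 deficient array had: it was -2.83 with the value set at the 10th percentile of all signals and -2.56 at the 30th, in place of the 20th. Grafts are named below by genotype and by the replicate number of the label.

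Several technical measures moved with the groups. The bacterial dap, lys, phe and thr transcripts, control RNAs that the labelling kit supplies for addition to the sample, were brighter on every deficient array than on any wild-type array, by 2.20 to 2.77 on the log2 scale, so sample preparation and genotype cannot be told apart. Within each genotype the arrays were cut at the widest gap in the middle Gapdh control probe set, a rule that always yields 2 sets. It gave 2 sets of 3: array set 1 (wild-type 1, 6 and 9, deficient 5, 9 and 11) and array set 2 (wild-type 4, 7 and 8, deficient 3, 10 and 14). The log2 signal of that probe set was 5.04 to 5.09 and 5.37 to 5.52 on the wild-type arrays of sets 1 and 2. On the deficient arrays it was 5.13 to 5.17 and 5.65 to 5.78. The labels do not name these sets. The log2 ratio of the 3′ to the 5′ Gapdh probe set, a measure of RNA length, was 0.36 to 0.45 on the deficient arrays of set 2 and 0.71 to 0.95 on the other 9. The samples were bulk tissue, in which more cells of a type and more RNA per cell cannot be told apart.

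Class I MHC molecules present peptides from inside the cell to CD8 T cells: the proteasome cuts the peptides, the transporter TAP carries them into the endoplasmic reticulum, and tapasin helps to load them onto a heavy chain paired with beta-2-microglobulin. Class II molecules present peptides from endocytic vesicles to CD4 T cells, with the invariant chain Cd74 guarding the groove until the DM heterodimer helps to exchange it. Interferons induce most of these genes through STAT and IRF factors, which bind the interferon-stimulated response element (ISRE) and the gamma-activated sequence (GAS) of their promoters, and both presentation pathways are induced in kidney grafts during rejection.

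Promoter sequences show what part of the set carries such an element. RefSeq promoters (assembly GRCr8, 250 bases before to 50 after the start) matched 37 of the 45 genes, and Ciita, Ifit2, Isg15, Mx2, Nlrc5, RT1-A, RT1-DMb and Usp18 had none. The ISRE core (GAAA, any 2 bases, GAAA), searched on both strands, was in 16 of 37 member promoters (43.2%) and in 3.92% of all 33469 promoters of the same length. It was in 7 of 8 promoters of interferon-induced effectors, 2 of 3 of the immunoproteasome, 6 of 15 of class I presentation, 1 of 5 of the transcription factors (Irf7) and 0 of 6 of class II presentation. The GAS core TTCNNNGAA was in 8 of 37 (21.6%), among them Irf1, Irf8 and Irf9, against 8.87% of all promoters. The 2 matches in each of the Tapbp, Bst2 and Oas1a promoters overlapped each other, and in Bst2 a GAS match overlapped an ISRE match. A match is a run of letters and was not tested for binding.

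The 250 bases before the start are printed for the 4 genes described in full below that hold an ISRE match there and had the lowest genotype p. They lie at chr6:128355062-128355311 (plus strand, Ifi27), chr1:205541759-205542008 (minus strand, Ifitm3), chr19:50743293-50743542 (minus strand, Psmb10) and chr20:2666239-2666488 (plus strand, RT1-N3), and capitals mark the ISRE core on either strand.
Ifi27: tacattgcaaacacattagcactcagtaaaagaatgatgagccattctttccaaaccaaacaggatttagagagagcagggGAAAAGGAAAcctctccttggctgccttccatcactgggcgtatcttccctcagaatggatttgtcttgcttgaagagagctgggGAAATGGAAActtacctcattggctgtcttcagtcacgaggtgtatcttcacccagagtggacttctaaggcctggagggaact
Ifitm3: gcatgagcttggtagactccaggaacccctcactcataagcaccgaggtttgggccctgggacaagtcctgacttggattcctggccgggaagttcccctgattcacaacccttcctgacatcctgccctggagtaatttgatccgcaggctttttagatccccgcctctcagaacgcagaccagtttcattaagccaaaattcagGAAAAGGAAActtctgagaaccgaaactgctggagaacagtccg
Psmb10: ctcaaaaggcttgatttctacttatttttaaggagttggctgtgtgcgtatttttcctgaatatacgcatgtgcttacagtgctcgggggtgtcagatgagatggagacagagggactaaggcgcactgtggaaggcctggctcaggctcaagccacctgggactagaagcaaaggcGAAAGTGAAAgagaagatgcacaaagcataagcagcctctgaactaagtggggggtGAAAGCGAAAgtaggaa
RT1-N3: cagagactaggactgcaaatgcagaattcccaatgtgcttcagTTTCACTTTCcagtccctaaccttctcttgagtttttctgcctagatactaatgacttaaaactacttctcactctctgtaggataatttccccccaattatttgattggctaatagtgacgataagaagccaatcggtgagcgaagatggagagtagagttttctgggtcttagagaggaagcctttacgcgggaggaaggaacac
Ifi27 and Psmb10 held 2 matches each. In RT1-N3 the single match reads in the opposite orientation (TTTCACTTTC), and in Ifitm3 it stands near the start, at bases -44 to -35, followed by a GAS match at -33 to -25.

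No member passed the adjusted threshold between the genotypes. Of 46 entries tested, 0 had an adjusted p under 0.05 with limma, where 0.0215% of all 18625 probe sets did (4, Abcc2 among them), and the lowest adjusted p of a member was 0.614. At an unadjusted p under 0.05 there was 1 member, Ifi27, higher in the deficient grafts, where 7.98% of all probe sets passed (3.35% higher, 4.63% lower). The groups overlapped for all 46, where 0.435% of all probe sets had groups that did not. Log2 differences, deficient minus wild type, ran from -0.35 (Mx2) to 0.30 (the flagged probe set RT1-A/CE11/CE13/CE7/CE5), with 24 above and 22 below 0 and a median of 0.018. Over all 10639 tested genes the median was -0.041. The split of the members turned to 20 above and 26 below 0 when each array was centred on its median. It was 16 above and 30 below without deficient 10, and 34 above and 12 below without wild-type 6.

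**Figure D1:**
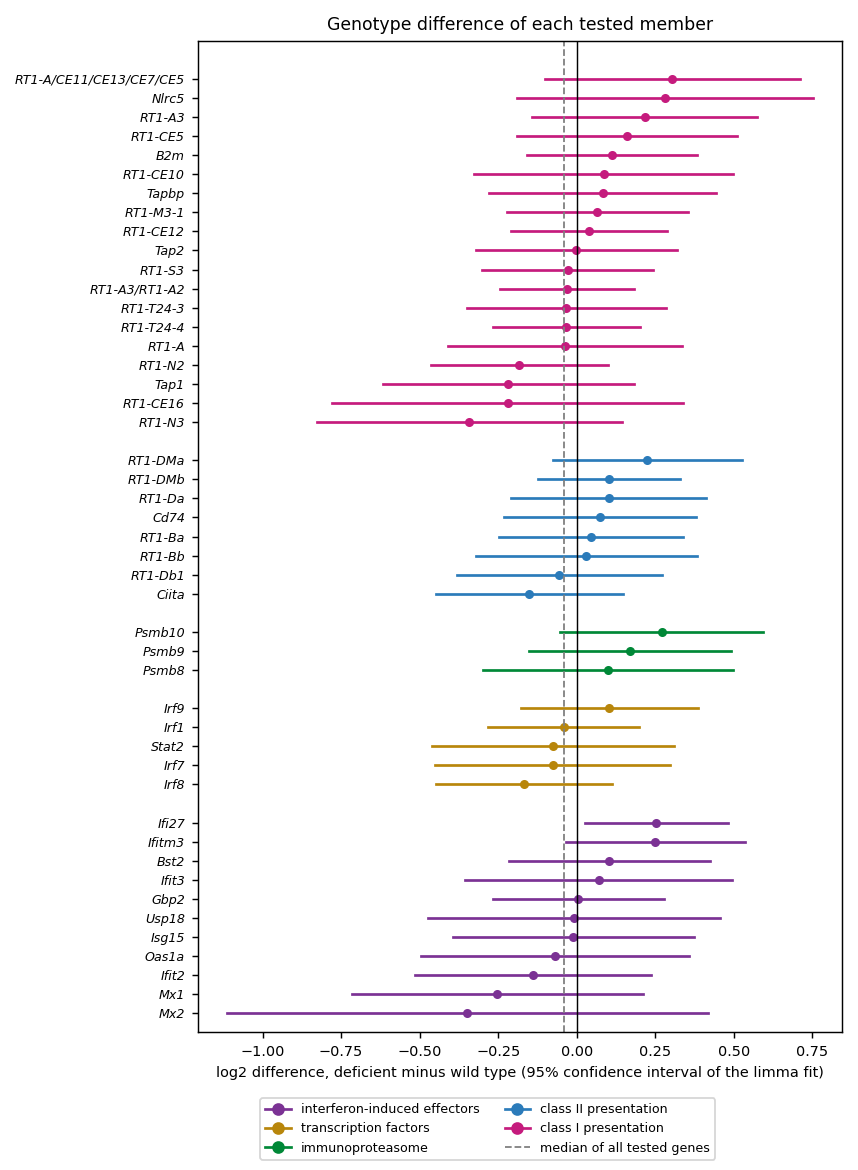
Log2 difference (deficient minus wild type, x axis) of each of the 46 tested members, grouped by role and colour; points are the limma estimates, lines their 95% confidence intervals, and the dashed line the median of all tested genes. Of the intervals, that of Ifi27 alone (0.026 to 0.48) leaves out 0 before adjustment for the number of probe sets.

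Class I presentation had 19 tested entries, 9 with a difference above 0 and 10 below, with a median of -0.00074. B2m, the light chain shared by all class I molecules, had log2 signals of 5.74 to 6.38 (median 5.86) in wild-type grafts and 5.77 to 6.33 (median 6.08) in deficient grafts. The groups overlapped over nearly their whole range, and the log2 difference was 0.11 (SE 0.13, adjusted p = 0.759). A second tested probe set of B2m had the opposite sign, a log2 difference of -0.10 (SE 0.093, limma adjusted p = 0.716). Tapbp, the peptide-loading chaperone tapasin, lay between -0.79 and 0.14 (median -0.37) in wild-type and between -0.69 and 0.11 (median -0.22) in deficient grafts. Its overall log2 difference of 0.083 (SE 0.17, adjusted p = 0.865) hid opposite differences in the array sets, given below. For Tap1 and Tap2, the subunits of the peptide transporter, the log2 differences were -0.22 and -0.00074. Nlrc5, the class I transactivator, differed by 0.28 on the log2 scale (SE 0.22, adjusted p = 0.676).

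The RT1 heavy chains form a family of near-identical copies, and probe sets of the array with _x_at or _s_at in their identifier hold probes that also match related transcripts, so the division of signal among copies is uncertain. The flagged probe set for RT1-A, RT1-CE11, RT1-CE13, RT1-CE7 and RT1-CE5 ran from -2.04 to -1.09 (median -1.27) in wild-type and from -1.57 to -0.82 (median -1.11) in deficient grafts. Wild-type 4 and wild-type 8, at -2.04 and -1.97, lay below the other 10 grafts, and the log2 difference was 0.30 (SE 0.19, adjusted p = 0.639). RT1-N3, a nonclassical class I gene, ran from -2.71 to -1.80 (median -2.05) in wild-type and from -2.93 to -1.83 (median -2.53) in deficient grafts. Its log2 difference was -0.34 (SE 0.23, adjusted p = 0.641), the lowest of the RT1 entries. RT1-CE16 ranged from -2.85 to -1.54 (median -2.22) against -2.91 to -1.90 (median -2.28), a log2 difference of -0.22 (SE 0.26, adjusted p = 0.766). Its 3 wild-type arrays of set 1 were the highest of all 12, and the other 9 lay at or below -1.90. The other class I entries were RT1-A, RT1-A3, RT1-CE10, RT1-CE12, RT1-CE5, RT1-M3-1, RT1-N2, RT1-S3, RT1-T24-3, RT1-T24-4 and the flagged RT1-A3/RT1-A2. Their log2 differences lay between -0.18 (RT1-N2) and 0.22 (RT1-A3).

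All 3 immunoproteasome subunits, which replace the standard catalytic subunits of the proteasome after interferon exposure, had differences above 0 with a median of 0.17, and none passed the test. Psmb8 had log2 signals of 0.27 to 1.20 (median 0.58) in wild-type and of 0.30 to 1.46 (median 0.77) in deficient grafts, a log2 difference of 0.10 (SE 0.19, adjusted p = 0.853). Psmb9 ran from 0.55 to 1.40 (median 0.97) and from 0.56 to 1.53 (median 1.22), a log2 difference of 0.17 (SE 0.15, adjusted p = 0.705). Psmb10 ran from -0.16 to 0.50 (median 0.32) and from 0.019 to 0.91 (median 0.58), a log2 difference of 0.27 (SE 0.15, adjusted p = 0.634). In each of the 3 genes wild-type 1 was the lowest graft and deficient 10 the highest. Leaving out those 2 grafts must therefore lower each difference, and that of Psmb8 was then -0.12. Psmb9 and Psmb10 stayed above 0 in every alternative run, at lowest 0.0085 and 0.094.

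Among the 8 class II presentation genes, 6 had a difference above 0 and 2 below, with a median of 0.060. Cd74 had log2 signals of 4.89 to 5.59 (median 5.19) in wild-type and 4.80 to 5.74 (median 5.31) in deficient grafts, a log2 difference of 0.074 (SE 0.14, adjusted p = 0.860). RT1-DMa, the alpha chain of the peptide exchange factor DM, ran from 0.57 to 1.04 (median 0.86) and from 0.48 to 1.45 (median 1.08), a log2 difference of 0.23 (SE 0.14, adjusted p = 0.639). Deficient 3, 10 and 14 lay above all wild-type grafts for this gene and deficient 9 below all of them. Ciita, the master transactivator of class II genes, ran from -1.36 to -0.73 (median -0.96) and from -1.51 to -0.91 (median -1.21), a log2 difference of -0.15 (SE 0.14, adjusted p = 0.716). RT1-Ba and RT1-Bb (the chains of the B molecule), RT1-Da and RT1-Db1 (the chains of the D molecule) and RT1-DMb (the DM beta chain) had log2 differences of -0.055 to 0.10.

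RT1-Db1 has a second tested probe set that disagreed with the one used. On it deficient 3, 10 and 14 stood at -0.40, -0.49 and -0.12 and the other 9 grafts between -2.01 and -1.29, whereas on the probe set used these 3 grafts, at 2.05, 2.67 and 1.82, lay among the others. Its genotype difference was 0.63 on the log2 scale (SE 0.28, adjusted p = 0.614) and an interaction of genotype with array set of 1.43 (adjusted p = 0.0248), against -0.055 and -0.028 on the one used. The 3 grafts are those with the low Gapdh ratio, whose part in the result was not tested. In all, 9 member genes had more than 1 tested probe set, and in 4 of these (B2m, Irf9, RT1-Db1 and RT1-S3) the probe sets differed in sign.

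Of the 5 transcription factors, 1 had a difference above 0 and 4 below, with a median of -0.076. Irf1, an early activator of antigen presentation genes, had log2 signals of 0.44 to 0.84 (median 0.59) in wild-type and 0.33 to 0.81 (median 0.60) in deficient grafts, a log2 difference of -0.042 (SE 0.11, adjusted p = 0.898). Irf8, a factor of myeloid and B cells, ran from -0.56 to 0.20 (median -0.13) and from -0.62 to -0.13 (median -0.24), a log2 difference of -0.17 (SE 0.13, adjusted p = 0.677). Irf9, the DNA-binding part of the complex ISGF3, ran from -0.38 to 0.10 (median -0.20) and from -0.56 to 0.31 (median -0.021), a log2 difference of 0.10 (SE 0.13, adjusted p = 0.780). On this probe set both the lowest and the highest Irf9 signal came from deficient grafts (3 and 10). A second tested probe set of Irf9 had the opposite sign, a log2 difference of -0.14 (SE 0.23, limma adjusted p = 0.836), with wild-type 9 highest. Irf7, the amplifier of the type I response, and Stat2, the partner of Irf9 in ISGF3, both had log2 differences of -0.076.

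The 11 tested interferon-induced effectors split into 5 with a difference above 0 and 6 below, with a median of -0.0085. Ifi27, an interferon-induced mitochondrial protein, had log2 signals of 2.76 to 3.21 (median 3.08) in wild-type and 3.07 to 3.53 (median 3.27) in deficient grafts. The log2 difference was 0.25 (SE 0.11), 1.19-fold higher, with an unadjusted limma p of 0.0311 and an adjusted p of 0.614. The unadjusted p was 0.05 or more without wild-type 1, wild-type 4, deficient 3, deficient 10 or deficient 14. Deficient 3, 10 and 14, at 3.53, 3.46 and 3.44, lay above all wild-type grafts, and the other 3 deficient grafts, at 3.07 to 3.11, lay among them. Ifitm3, a membrane protein that hinders virus entry, ran from 2.86 to 3.31 (median 3.06) and from 2.91 to 3.74 (median 3.23), a log2 difference of 0.25 (SE 0.14, adjusted p = 0.628). Bst2 (tetherin), which holds budding virus at the cell surface, ran from 1.52 to 2.01 (median 1.75) and from 1.47 to 2.31 (median 1.82), a log2 difference of 0.10 (SE 0.15, adjusted p = 0.806). For both genes the same 3 deficient grafts were above every wild-type graft.

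Mx1 and Mx2, antiviral GTPases, were among the 8 members that varied most between grafts of 1 genotype, as were Usp18, Oas1a, Ifit3, Psmb8, RT1-CE16 and RT1-N3. Mx2 ran from -2.05 to 0.028 (median -0.53) in wild-type and from -2.47 to -0.028 (median -0.88) in deficient grafts, a log2 difference of -0.35 (SE 0.36, adjusted p = 0.737). Its SD within genotype was larger than that of 98.9% of all tested probe sets. Mx1 ran from -0.57 to 0.68 (median 0.068) and from -1.02 to 0.23 (median -0.17), a log2 difference of -0.25 (SE 0.22, adjusted p = 0.695). Usp18, which removes the ubiquitin-like ISG15 from proteins, ran from -1.11 to 0.24 (median -0.55) and from -1.19 to -0.085 (median -0.34), a log2 difference of -0.0085 (SE 0.22, adjusted p = 0.992). Oas1a, an activator of RNase L, ran from -1.77 to -0.54 (median -0.94) and from -1.61 to -0.71 (median -1.04), a log2 difference of -0.069 (SE 0.20, adjusted p = 0.907).

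Isg15, the ubiquitin-like modifier itself, ran from -0.42 to 0.74 (median 0.66) in wild-type and from 0.098 to 0.73 (median 0.53) in deficient grafts. The log2 difference was -0.011 (SE 0.18, adjusted p = 0.987), and wild-type 1 stood alone at the low end. Ifit3, an antiviral protein of the IFIT family, ran from -1.81 to -0.73 (median -1.48) and from -1.88 to -0.94 (median -1.20), a log2 difference of 0.070 (SE 0.20, adjusted p = 0.907). Ifit2 and the guanylate-binding protein Gbp2 had log2 differences of -0.14 and 0.0056. As each graft was left out in turn, the differences of Isg15, Usp18, Oas1a and Ifit3 changed sign, running from -0.19 to 0.064, from -0.13 to 0.14, from -0.22 to 0.036 and from -0.017 to 0.20.

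**Figure D2:**
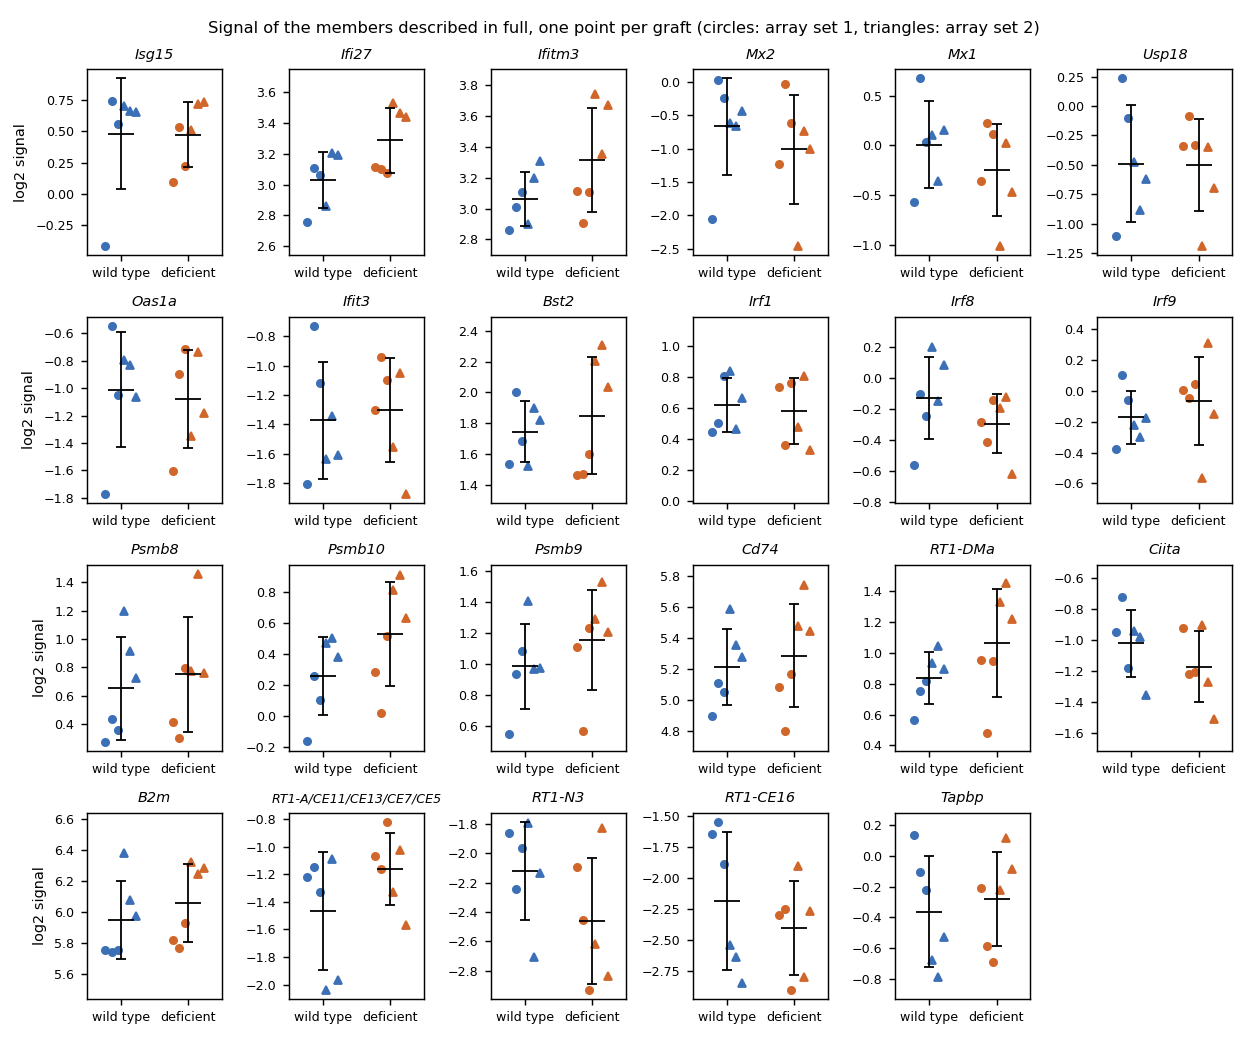
Log2 signal (y axis, own scale in each panel) of the 23 members described in full, in 6 wild-type (blue) and 6 deficient (orange) grafts; circles are array set 1, triangles array set 2, and bars the group mean with its SD. The groups overlap in every panel, and for Ifi27, Ifitm3, Bst2 and RT1-DMa the 3 deficient triangles lie above all wild-type points.

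Other genes of the pathway gave the same counts of 0 past the adjusted threshold. Of 14 tested interferon receptor and signalling genes, 5 had a difference above 0 and 9 below (median -0.061), and the lowest p belonged to Irf2 (-0.17, adjusted p = 0.639) and Pias1 (-0.14, adjusted p = 0.674). Of 16 further antigen processing genes, 7 had a difference above 0 and 9 below (median -0.074), led by Psme1, a subunit of the proteasome activator PA28 (0.17, adjusted p = 0.628), and the chaperone Canx (-0.20, adjusted p = 0.638). Of 36 further interferon-induced genes, 14 had a difference above 0 and 22 below (median -0.037), led by the galectin Lgals9 (0.60, SE 0.23, unadjusted p = 0.0201, adjusted p = 0.606) and the chemokine Cxcl11 (-0.20, adjusted p = 0.628). Lgals9 was the only gene of the 3 lists with an unadjusted limma p under 0.05, where 7.98% of all probe sets passed.

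Several groups of members varied together between grafts. For 7 of 8 class II genes, Ciita being the exception, deficient 10 was the highest of the 12 grafts and deficient 9 the lowest. All 8 class II genes had a larger SD in the deficient than in the wild-type grafts. It was 0.40 against 0.13 for RT1-Da and 0.23 against 0.22 for Ciita. The same order held for all 3 immunoproteasome genes, Bst2 and Ifitm3, and the opposite one for Isg15 and Usp18. How many of all probe sets had this order was not counted. Since deficient 10 and deficient 9 were the extremes for 7 of the 8, these SDs are not separate observations. Averaged over the 8 genes, each taken minus its mean over all grafts, deficient 10 stood at 0.44 and deficient 9 at -0.47, and the other 10 grafts lay between -0.22 and 0.19. The immunoproteasome average was also highest in deficient 10 (0.58) and low in deficient 9 (-0.43), though wild-type 1 was lower still (-0.50). Among the interferon-induced effectors wild-type 6 was highest for 7 of 11, wild-type 1 lowest for 4 and deficient 3 lowest for 4. Averaged over all 11, wild-type 6 stood at 0.41, deficient 10 at 0.21, wild-type 9 and deficient 9 at 0.17 each, deficient 3 at -0.29 and wild-type 1 at -0.53. The effectors were not 1 group, however: deficient 3 was the highest graft for Ifi27 and Ifitm3 and deficient 10 for Bst2. Over a subset picked after the values were seen, of 7 effectors and the transcription factor Irf7 (with Mx1, Mx2, Oas1a, Isg15, Ifit2, Ifit3 and Usp18), the average was 0.62 in wild-type 6, 0.36 in deficient 9, -0.57 in deficient 3 and -0.63 in wild-type 1.

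**Figure D3:**
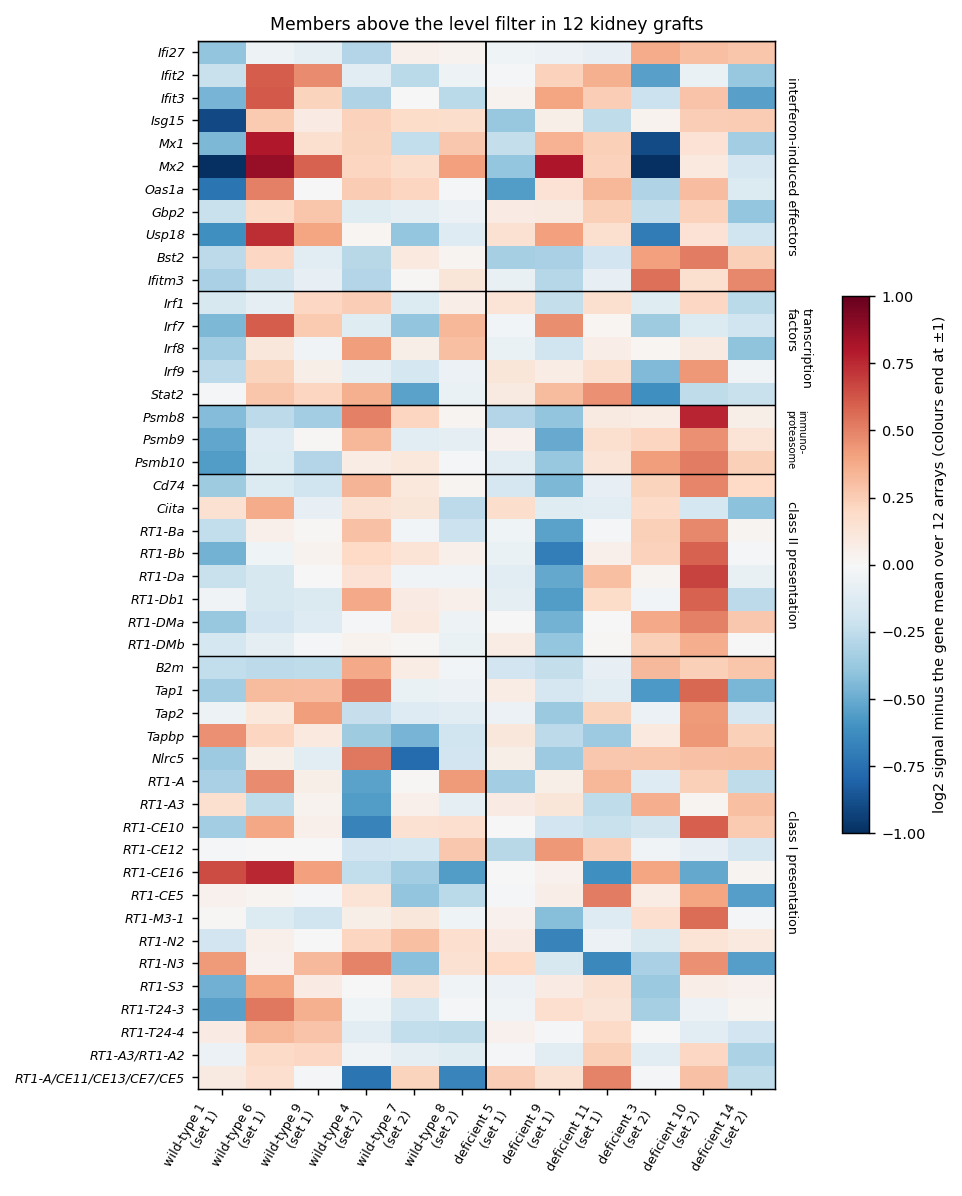
Log2 signal of each of the 46 tested members (rows, by role) in 12 grafts (columns, wild type left of the line), minus the mean of the gene over all grafts; colours end at 1 above and below that mean. Deficient 10 is high and deficient 9 low through the class II rows other than Ciita and the immunoproteasome rows, while wild-type 6 is high and wild-type 1 and deficient 3 are low through the Mx1, Mx2 and Usp18 rows.

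Correlations over the 12 grafts, with the genotype means removed, describe the same groups. The points share arrays, and array quality with them. Within class II the median Pearson r over 28 pairs was 0.82, and 71.4% of pairs exceeded 0.7; over all pairs of the 10639 tested genes the median was 0.058 and 5.77% exceeded 0.7. Immunoproteasome and class II genes had a median r of 0.83 over 24 pairs, class II genes and effectors one of 0.034 over 88 pairs, and class I presentation genes among themselves one of 0.059 over 136 pairs. With the means of genotype and array set both removed, the medians were 0.80 within class II, 0.80 between class II and the immunoproteasome and 0.67 among the effectors, against 0.056 for all pairs of genes. The class II median rested in part on 2 grafts: without deficient 9 and deficient 10 it was 0.42, with 28.6% of pairs over 0.7, and the median between class II and the immunoproteasome was 0.67. Within the effectors it was 0.50 over 55 pairs, and 0.33 without wild-type 1 and deficient 3. Among the members B2m had its highest r with Cd74 (0.91) and RT1-S3 had its highest with Mx2 (0.89) and RT1-T24-3 (0.87), values picked after they were seen and given without a test. Likewise Ifi27, Bst2 and Ifitm3 had r of 0.77 to 0.90 with each other and of 0.75 to 0.78 with RT1-DMa, but of -0.49 to -0.14 with Mx1.

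Of 12 pairs tested, 5 passed a permutation test after Benjamini-Hochberg adjustment over the 12. The pairs were chosen with earlier results of these data known, and the adjustment does not account for that choice. The permutations ran over all 12 grafts and not within the array sets, between which some of these genes differed. Mx1 and Mx2 had a Pearson r of 0.90 (permutation adjusted p = 0.00072) and a Spearman rho of 0.90 (adjusted p = 0.00156), with r at 0.81 without deficient 3 and wild-type 1 and at 0.92 and 0.86 within array sets 1 and 2. Psmb8 and Psmb10 had r = 0.86 (permutation adjusted p = 0.002), rho = 0.89 (adjusted p = 0.0018), r = 0.91 without deficient 10 and wild-type 4, and 0.88 and 0.74 within the sets. Irf7 and Usp18 had r = 0.86 (permutation adjusted p = 0.002), rho = 0.86 (adjusted p = 0.00196), r = 0.76 without wild-type 6 and deficient 9, and 0.96 and 0.48 within the sets. Psmb8 and Psmb9 had r = 0.80 (permutation adjusted p = 0.00555), rho = 0.73 (adjusted p = 0.0265), r = 0.64 without deficient 10 and wild-type 4, and 0.72 and 0.85 within the sets. These 4 relations kept their sign in every such subset.

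Cd74 and RT1-Da had r = 0.77 (permutation adjusted p = 0.00722) but rho = 0.63 (adjusted p = 0.0795), and r was 0.41 without deficient 10 and 9 and 0.86 and 0.85 within array sets 1 and 2, each of which holds 1 of those 2 grafts. Over all 12 grafts the relation thus rested in part on them. Irf7 with Isg15 and Ifit3 with Isg15 did not pass (r = 0.36 and 0.26, permutation adjusted p = 0.343 and 0.508). In array set 1 alone their r was 0.98 and 0.97, and in set 2 it was 0.22 and 0.038, each over 6 grafts. Cd74 with its transactivator Ciita had r = -0.13 (permutation adjusted p = 0.682), B2m with Tapbp -0.14 (0.682), Tap1 with Tap2 0.49 (0.159), Tap1 with Psmb9 0.53 (0.126) and Irf1 with Gbp2 0.59 (0.0958).

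**Figure D4:**
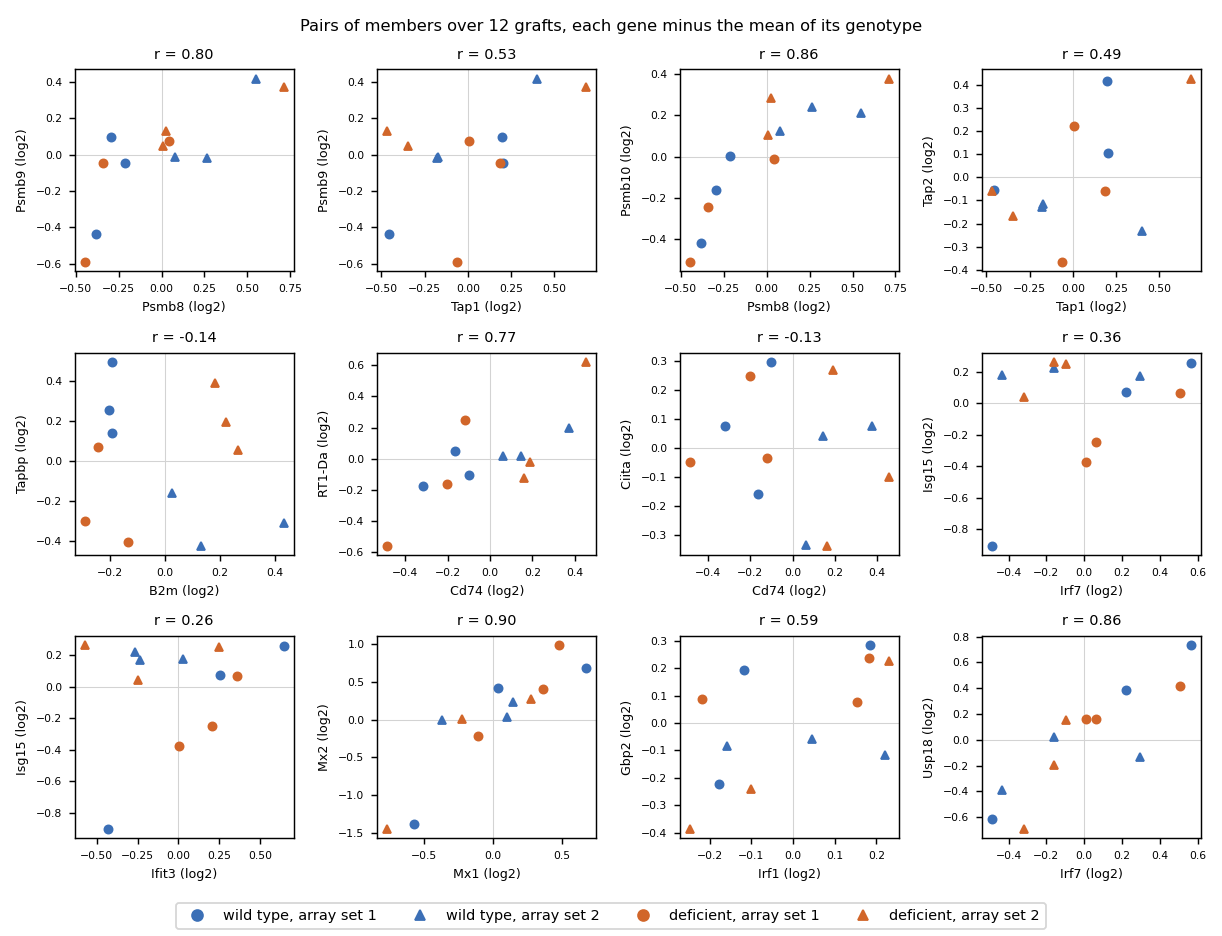
The 12 pairs of members over 12 grafts, each gene as log2 signal minus the mean of its genotype; blue is wild type, orange deficient, circles array set 1 and triangles array set 2. Mx1 with Mx2 (r = 0.90) and the immunoproteasome pairs form a line in both sets, and B2m with Tapbp (r = -0.14) does not.

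Markers of leukocytes, of which only some types are rich in class II molecules, moved with the class II genes in part. The summed linear signal of 11 macrophage and dendritic cell markers on the array, 8 of them above the filter, was 29.2 to 38.6 in wild-type and 31.9 to 45.3 in deficient grafts. It was highest in deficient 10 (45.3), stood at 31.9 in deficient 9, and was lowest in wild-type 6 (29.2). Lyz2 alone made up 72.5% to 77.2% of it, and without Lyz2 the sum was again highest in deficient 10 (10.4) and stood at 7.70 in deficient 9, within a range of 7.61 to 10.4. Of the 8 tested macrophage markers, Mrc1 and Itgax had an unadjusted limma p under 0.05, where 7.98% of all probe sets did. Their log2 differences between genotypes were 0.38 and -0.34, with adjusted p of 0.612 and 0.606. The sum of 10 T cell markers, 7 above the filter, was 2.43 to 3.00 in wild-type and 2.16 to 3.24 in deficient grafts, highest in deficient 10 (3.24) and lowest in deficient 5 and 9 (2.16 each). The 3 B cell markers, 1 above the filter, summed to 1.81 to 2.57 and 1.91 to 2.39, and the 6 NK cell markers, 2 above the filter, to 0.66 to 1.04 and 0.54 to 0.97. The 8 tubule and glomerulus markers of the cortex were all above the filter. Of these, Slc5a2, Slc12a3 and Nphs1 had an unadjusted limma p under 0.05, where 7.98% of all probe sets did. Their log2 differences were -0.38, -0.40 and -0.24, with adjusted p of 0.606, 0.612 and 0.614. The 3 erythrocyte markers, all above the filter, summed to 19.2 to 50.5 in wild-type and 10.3 to 42.8 in deficient grafts. Slc4a1 among them had an unadjusted limma p under 0.05 (log2 difference -0.41, adjusted p = 0.606). The 5 endothelial markers summed to 16.6 to 20.9 and 16.8 to 19.5. None of these lists had a marker at the lowest value on every array, though the macrophage markers Cd163 and Itgam were there on all deficient arrays. The part of these cells in the class II pattern was not tested.

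Array set, itself drawn from a Gapdh signal of these same arrays, separated more probe sets than genotype did, over the whole array and among the members. With genotype in the fit, 12 of 46 members differed between the array sets, a smaller share than the 30.3% of all probe sets. Of the members, 9 were higher in set 2, where 11.3% of all probe sets were, and 3 were lower, where 19% were. The 9 were B2m (0.42, adjusted p = 0.000125), Cd74 (0.46, adjusted p = 0.00041), Psmb8, Psmb10, RT1-Bb, RT1-DMa, Ifi27, Bst2 and Ifitm3, and the 3 were Stat2, Ifit2 and RT1-T24-4. For B2m the 3 wild-type grafts of set 1 lay between 5.74 and 5.76 and those of set 2 between 5.97 and 6.38. On its second probe set the wild-type grafts again lay apart, at 3.955 to 4.117 in set 1 and 4.259 to 4.385 in set 2. The deficient grafts overlapped there, at 3.991 to 4.109 in set 1 and 3.875 to 4.251 in set 2. The value of 3.875 was that of deficient 3, and deficient 10 and 14 lay above set 1. The array set fit was not repeated under quantile normalization. There the SE of the genotype difference was 0.046 for B2m and 0.097 for Cd74, against 0.13 and 0.14 as reported. The macrophage marker sum, mostly Lyz2, was 29.2 to 36.2 in set 1 and 37.1 to 45.3 in set 2. Without Lyz2 it overlapped, at 7.61 to 8.92 and 8.73 to 10.4. The log2 signal of the hybridisation control bioC was 2.08 to 2.46 in set 1 and 2.54 to 3.32 in set 2. The part of the marker sum or of this control in these differences was not tested.

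Within array set 2 alone, 4 of 46 members were called, where 6.39% of all probe sets were called in either direction. All 4 were higher in the deficient grafts. They were Tapbp (log2 difference 0.60, limma adjusted p = 0.039), Ifi27 (0.39, adjusted p = 0.0382), Bst2 (0.44, adjusted p = 0.0447) and Ifitm3 (0.45, adjusted p = 0.0491), with 3 grafts a group. In set 1 their differences were -0.43, 0.12, -0.23 and 0.047, and 0 members were called, where 0.0215% of all probe sets were. Tapbp, with an interaction of genotype and array set of 1.03 (limma adjusted p = 0.0206), was the 1 member of 46 whose difference itself differed between the sets, where 2.54% of all probe sets passed. Bst2 had an interaction of 0.66 (adjusted p = 0.0555). The 3 deficient grafts of set 2 are those with the low Gapdh ratio. With that ratio as a covariate over all 12 grafts, 0 members had an unadjusted p under 0.05, where 3.59% of all probe sets did, and the lowest adjusted p of a member was 1.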

How the data were processed

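Renal cortex RNA of 12 rat grafts was hybridised to Affymetrix rat 3′ arrays, 1 per graft. The deposited values are linear signal intensities, made with MAS5 and GCOS per the submitters' processing notes; the sources used here do not give the constant each array was divided by. Depth has no counterpart on arrays, and their number limits the precision. Values under the pooled 20th percentile (0.0694, log2 -3.85) were raised to it and taken to log2. Controls (57 probe sets) were left out, and the 18625 of 31099 probe sets with a mean at or above the 40th percentile were tested with limma 3.58.1 in R 4.3.3 (eBayes with a variance trend, Benjamini-Hochberg adjustment, threshold 0.05), genotype being the only term, in a script tested on simulated data. A difference is deficient minus wild type.

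Genes were named through the platform annotation, updated by Entrez identifier. Described in full were 1 anchor gene per role, the 2 with the lowest p per role, the 8 with the largest SD within genotype and members called under any alternative; per pathway list, the 2 with the lowest p. Pairs were tested by 100000 permutations. Alternatives changed the floor, filter, normalization, variance model, array weights, array set, Gapdh covariate, probe set choice and samples. The members, lists and pairs were chosen with earlier results of these data known.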

Additional observations from a re-analysis of the deposited data

Results flagged for a closer look

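Wild-type 1 stood apart from the other 5 wild-type grafts for 2 members. Its Isg15 log2 signal was -0.42, and the nearest other was 0.56, a gap of 0.842 of the group's whole range. Its Mx2 log2 signal was -2.05, and the nearest other was -0.67, a gap of 0.666 of the range. Both gaps exceed the 95% critical value of Dixon for 6 samples, and 46 groups were checked, of which chance alone flags about 5%.

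The 4 bacterial control transcripts that are not part of the main measurement were brighter on all 6 deficient arrays than on all 6 wild-type arrays, with log2 differences of 2.77 (dap), 2.20 (lys), 2.25 (phe) and 2.74 (thr). The sources used here do not say how much control RNA went into each sample.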

How the results depend on the processing

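The count of members past the adjusted threshold was 0 in 26 of 27 alternatives and 4 in array set 2 alone, where 6.39% of all probe sets passed. The count at an unadjusted p under 0.05 was 1 as reported. It was 0 with arrays centred on their median, with array weights and with the Gapdh covariate (10.7%, 7.57% and 3.59% of all probe sets). With array set as a block it was 4, all higher in the deficient grafts (19.5% of all probe sets in either direction). In array set 1 alone it was 2, both lower (11.5%). In array set 2 alone it was 7, of which 6 were higher and 1 lower (24.6%). With each graft left out it was 0 to 6, where 4.94% to 12.4% of all probe sets passed. The count was 0 without wild-type 1, wild-type 4, deficient 3, deficient 10 or deficient 14, each of which ended the p of Ifi27. Without deficient 9 it was 6, where 12.4% of all probe sets passed. Without both wild-type 1 and deficient 10 it was 2, where 4.59% of all probe sets passed, and both (Tap1 and Irf8) were lower in the deficient grafts. That alternative was chosen after seeing the data, as were the interaction, the block with the Gapdh ratio, the correlations without 2 grafts and the marker sum without Lyz2. The members' median difference ran from -0.085 to 0.072, and from -0.039 to 0.054 with each graft left out. For single members, 607 of 615 values kept their side of the threshold and had no counted change of sign. A change of sign was counted only where the value moved by at least the SD of that member within genotype. With changes of any size, the sign of Isg15 and that of Usp18 changed in 8 of 27 alternatives each. That of Irf1 changed in 6 and that of Ifi27 in 0. Abcc2 stayed between -2.99 and -2.40 and had no value under the 60th-percentile filter. In both alternatives for the pairs, 5 passed. No paired analysis was made, because the labels do not name pairs. The genotypes share only 1 replicate number (9), and the labels do not say what that number stands for. Signals near the lowest value limit what the arrays show for the dimmest RT1 probe sets.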
